A study of Mus musculus with 2 samples.

Results

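Fgl2 and Nts lymphatic endothelial cells were the barcodes of sorted mouse lung cells that carried lymphatic transcripts together with those of Fgl2, Nts and Sema3a. A barcode, the tag shared by the transcripts of 1 droplet, was kept with at least 500 detected genes and at most 15% mitochondrial counts. A unique molecular identifier (UMI) counts each captured transcript once. Members needed at least 3 UMIs summed over the lymphatic genes Prox1, Mmrn1 and Reln, and at least 3 summed over Fgl2, Nts and Sema3a. That second sum also had to be at least 2 times the sum over Mrc1, Ptx3 and Pld5, and Mki67 and Top2a, genes of dividing cells, had to sum to fewer than 3. The rule found 1204 of 26436 barcodes, 1009 of 10785 in the library labelled aKO and 195 of 15651 in the library labelled aWT. They are called Fgl2/Nts cells below. Since measured values chose them, every comparison with other lymphatic cells is a description.

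Lymphatic vessels begin as blind-ended capillaries, which take up tissue fluid and immune cells, and drain into collecting vessels with valves that keep the flow in 1 direction. The transcription factor Prox1 sets and keeps lymphatic identity, and the growth factor receptor Flt4 carries growth signals into these cells. In mice, capillary cells are known for Lyve1 and Ccl21a, and collecting and valve cells for Foxp2, Foxc2 and connexins.

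Both libraries came from lungs of C57BL/6J mice aged 10 to 12 weeks, in which a VE-cadherin-cre recombinase, active in endothelial cells, marks cells with the red protein tdTomato. Red cells were sorted and sequenced with the 10x Genomics 3' method. The title of the series names a mouse model of Hereditary Hemorrhagic Telangiectasia 2, the disorder tied to ACVRL1, which encodes the BMP receptor ALK1. Which gene or exon was deleted, and whether animals were pooled, is not in the labels. There was 1 library per group, so no difference was tested, and the intervals given cover counting error only. The aKO library held 75950364 UMIs in 11045 barcodes and the aWT library 72270260 UMIs in 15996 barcodes. The libraries shared 48 barcodes, among them 6 aKO and 1 aWT Fgl2/Nts cells. Xist, transcribed from the inactive X chromosome of females, was at 728 counts per 1000000 UMIs of the class and library (CPM) in aKO and 4.45 CPM in aWT Fgl2/Nts cells, while the Y-linked Ddx3y was at 0.113 and 95.2 CPM. The libraries therefore also differed in the sex of their animals, and sex and genotype cannot be told apart. The tdTomato transcript was at 86.4 CPM in aKO and 129.9 CPM in aWT members.

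Of the markers, Prox1 and Mmrn1 were part of the rule, so their levels describe the choice and do not check the label. Prox1 stood at 684 CPM in aKO (95% exact Poisson interval 667 to 702) and 874 CPM in aWT Fgl2/Nts cells (820.0 to 930.2). Mmrn1, which encodes a multimerin of the extracellular matrix, stood at 2985 and 3156 CPM. Non-lymphatic barcodes, those with no UMI of Prox1, Mmrn1 or Reln, had none by construction. Foxp2, a transcription factor that the rule did not use, was at 433 CPM in aKO and 379 CPM in aWT members. Its level was 164 and 128 CPM in the Mrc1/Ptx3 cells of the same libraries, chosen by the mirror rule, and 3.02 and 8.70 CPM in non-lymphatic barcodes.

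Of the trio that chose the cells, Nts had the lowest level. Fgl2, a fibrinogen-like protein, was at 1529 CPM in aKO and 1441 CPM in aWT members, and Sema3a, a repulsive guidance cue that acts in lymphatic valves, at 1149.7 and 895 CPM. Nts, which encodes the peptide neurotensin, was at 467 and 479.6 CPM. A UMI of Nts was seen in 46.8% of aKO and 35.9% of aWT members, against 92.5% and 82.6% for Fgl2, and a cell with no UMI can still express the gene. All 3 genes were seen together in 40.5% of aKO and 27.2% of aWT members, and Fgl2 with Sema3a but without Nts in 42.8% and 40.5%. A UMI of Sema3a alone brought in 4.26% of aKO and 11.8% of aWT members.

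At an equal depth of 2000 UMIs per cell, the shares of members with a UMI of the 3 genes lay closer between the libraries than before. Thinning left out 35 aKO and 16 aWT members with fewer UMIs. Fgl2 was then seen in 81.5% of aKO and 76.5% of aWT members. It was seen in 13.1% and 7.28% of Mrc1/Ptx3 cells and 3.33% and 4.22% of non-lymphatic barcodes. Both rules used these 3 genes, so the gaps between classes come with the choice. Whether the UMIs in non-lymphatic barcodes came from free RNA or from those cells was not tested. Nts was seen in 30.4% and 29.1% of members and in 0.281% and 0.0994% of non-lymphatic barcodes. Sema3a reached 71.1% and 67.6% of members, and it was also seen in 45.8% and 41.7% of Mrc1/Ptx3 cells. Before thinning, the median depth was 7777 UMIs in aKO and 4795 UMIs in aWT members, 6830 and 6110 UMIs in Mrc1/Ptx3 cells, and 5545 and 3962 UMIs in non-lymphatic barcodes.

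Fgl2/Nts cells made up a larger share of the lymphatic barcodes in aKO than in aWT. They were 1009 of 1936 lymphatic barcodes in aKO, or 52.1% (exact Clopper-Pearson 95% interval 49.9 to 54.4), and 195 of 651 in aWT, or 29.95% (26.5 to 33.6). Mrc1/Ptx3 cells were 388 in aKO (20.04%) and 222 in aWT (34.1%), so that there were 2.60 Fgl2/Nts cells per Mrc1/Ptx3 cell in aKO and 0.878 in aWT. The remaining lymphatic barcodes that did not cycle, with too few UMIs of either trio or with both, numbered 526 and 229. Among all barcodes that passed the filter, Fgl2/Nts cells were 9.36% in aKO and 1.25% in aWT, and all lymphatic barcodes 18.0% and 4.16%. The sort can set these shares, and the rule counts UMIs, so depth moves with them. After thinning before the rule was applied, the share of lymphatic barcodes was 46.4% in aKO and 28.8% in aWT.

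**Figure D1:**
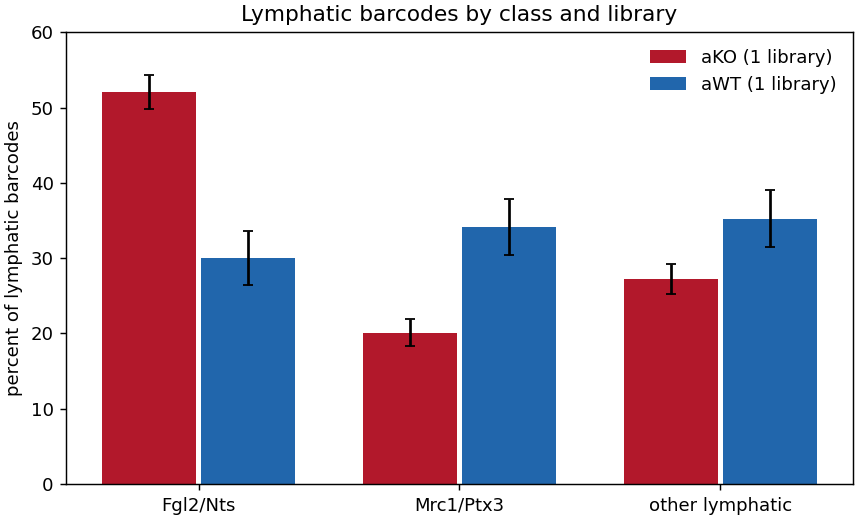
Percent of lymphatic barcodes in each class (y axis) for Fgl2/Nts, Mrc1/Ptx3 and other lymphatic barcodes (x axis), with 1 bar per library, aKO in red and aWT in blue, and 95% Clopper-Pearson intervals. The Fgl2/Nts bar is at 52.1% in aKO and 29.95% in aWT, and the Mrc1/Ptx3 bar at 20.04% and 34.1%.

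Cells at the edge of the rule were few and shallow. With exactly 3 UMIs over Fgl2, Nts and Sema3a, just inside, there were 39 aKO and 10 aWT cells with medians of 3232 and 2563 UMIs. With exactly 2, just outside but otherwise as members, there were 32 aKO and 19 aWT cells with medians of 2637 and 1987 UMIs. Prox1 was at 575 CPM in aKO and 1046 CPM in aWT cells just inside, and at 672 and 619 CPM just outside. Igfbp5, described next, was at 1934 and 2442 CPM just inside, and at 4443 and 811 CPM just outside. The median member carried 21 such UMIs in aKO and 13 in aWT.

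Beside Mrc1/Ptx3 cells, Fgl2/Nts cells of both libraries had higher levels of Igfbp5, Ptn, Clca3a1, Nrxn3 and Htr2b, and lower levels of Npnt, Stab2 and Cacna2d3. A gene counted here when it had at least 50 CPM in 1 of the classes and differed at least 2-fold after 5 CPM had been added to each. In both libraries 137 genes were higher and 101 lower in Fgl2/Nts cells of 4243 measured in each, a background of 3.23% and 2.38%. Within aKO alone, 187 of 4580 genes were higher (4.08%) and 144 lower (3.14%), and within aWT alone 219 of 4578 were higher (4.78%) and 172 lower (3.76%). In opposite 2-fold directions in the libraries was 1 gene each way. The cells were chosen on 2 sets of genes of this contrast, so these counts carry no test.

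**Figure D2:**
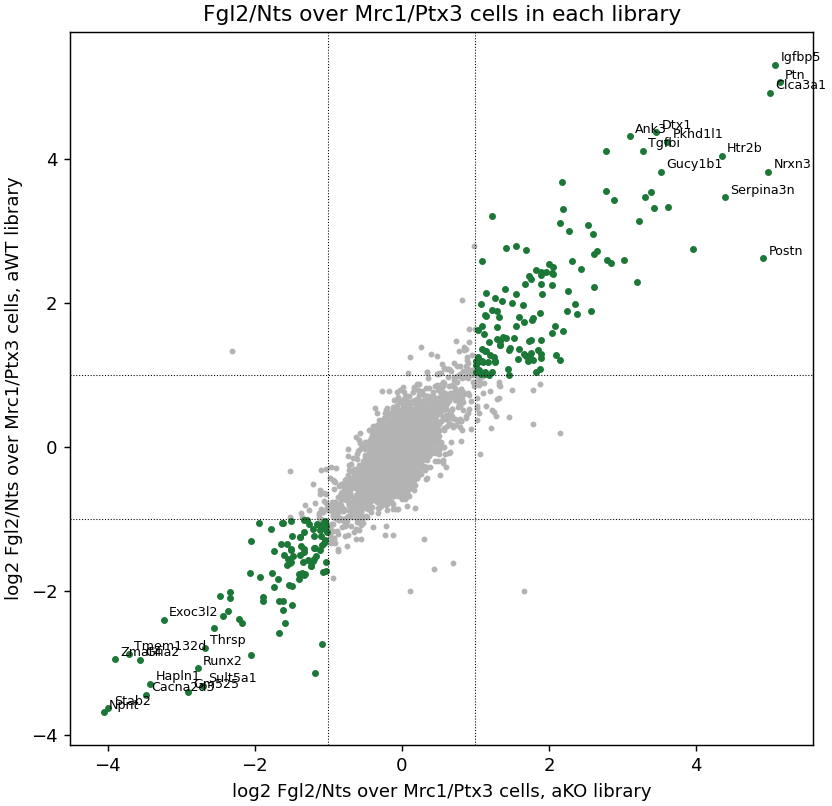
Log2 ratio of Fgl2/Nts over Mrc1/Ptx3 cells for each gene measured in both libraries, in aKO (x axis) and aWT (y axis), without the genes of the selection rule. Green points are at least 2-fold the same way in both, dotted lines mark 2-fold, and names are the highest and lowest 12 by the mean of both ratios, with Igfbp5 at 5.08 and 5.31 and Npnt at -4.05 and -3.68.

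Igfbp5, a secreted binding protein of insulin-like growth factors, was among the most abundant of the genes higher in Fgl2/Nts cells. It was at 2573 CPM in aKO (2539.8 to 2607) and 2480.0 CPM in aWT Fgl2/Nts cells (2389 to 2574), against 71.3 and 57.6 CPM in Mrc1/Ptx3 cells, a log2 ratio of 5.08 in aKO and 5.31 in aWT. The secreted growth factor Ptn, pleiotrophin, was at 246 CPM in aKO and 206 CPM in aWT Fgl2/Nts cells, against 2.12 and 1.32 CPM in Mrc1/Ptx3 cells. Their non-lymphatic levels differed: 364 and 141 CPM for Igfbp5, but 2.77 and 2.15 CPM for Ptn, so that Ptn was low in both other populations. At 2000 UMIs per cell Igfbp5 was seen in 57.8% of aKO and 53.1% of aWT Fgl2/Nts cells, and Ptn in 21.6% and 16.8%.

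Receptors and membrane proteins were also in this group. Clca3a1, a secreted or membrane-bound protein of the chloride channel accessory family, was at 340.5 CPM in aKO and 267 CPM in aWT Fgl2/Nts cells, against 5.76 and 3.97 CPM in Mrc1/Ptx3 cells. Htr2b, a serotonin receptor, was at 147 and 121 CPM against 2.43 and 2.65 CPM. Nrxn3, a neurexin best known from synapses, was at 297 and 178 CPM against 4.55 and 7.94 CPM. For each of the 3 genes the level in Fgl2/Nts cells was over 10 times that in Mrc1/Ptx3 cells of the same library. Pkhd1l1, a large membrane protein related to fibrocystin, was at 514 and 779 CPM against 37.6 and 36.4 CPM. Dtx1, a ubiquitin ligase of the Notch pathway, was at 110.1 and 167 CPM against 5.46 and 3.31 CPM.

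Gucy1b1, Gucy1a1 and Gucy1a2, subunits of soluble guanylate cyclase, the receptor of nitric oxide, were higher in Fgl2/Nts cells. Gucy1b1, the beta subunit, was at 97.9 CPM in aKO and 103 CPM in aWT Fgl2/Nts cells, against 3.94 and 2.65 CPM in Mrc1/Ptx3 cells. The alpha subunit Gucy1a1 was at 54.5 and 63.2 CPM against 3.03 and 1.32 CPM. The other alpha subunit, Gucy1a2, was at 71.6 and 50.7 CPM against 2.73 CPM in aKO and no UMI in aWT Mrc1/Ptx3 cells, where 3 counts would be 1.99 CPM. The alpha subunits were named after their values had been seen. In non-lymphatic barcodes Gucy1b1 was at 9.62 and 10.2 CPM.

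Among the other genes of the 12 highest ratios, Tgfbi, a matrix protein induced by TGF-beta, was at 99.5 CPM in aKO and 116 CPM in aWT Fgl2/Nts cells, against 5.76 and 1.99 CPM in Mrc1/Ptx3 cells. Serpina3n, Postn and Ank3 also differed between the libraries. Serpina3n, a serine protease inhibitor, was at 208 CPM in aKO and 65.0 CPM in aWT Fgl2/Nts cells, against 5.16 and 1.32 CPM. Postn, the matrix protein periostin, was at 237 and 82.8 CPM against 3.03 and 9.27 CPM. Ank3, a membrane-skeleton adaptor, ran the other way between the libraries, with 56.1 CPM in aKO and 174 CPM in aWT Fgl2/Nts cells against 2.12 and 3.97 CPM. Its log2 ratio of aKO over aWT was -1.55 in all members, -0.88 without the mixed barcodes described below (60.7 and 116 CPM) and -0.50 without doublet calls, so it was not 2-fold there.

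Genes lower in Fgl2/Nts cells included a scavenger receptor, a matrix ligand and channel subunits. Npnt, which encodes the integrin ligand nephronectin, was at 13.1 CPM in aKO and 23.1 CPM in aWT Fgl2/Nts cells, against 295 and 356 CPM in Mrc1/Ptx3 cells. Stab2, a scavenger receptor for hyaluronan, was at 8.67 and 87.2 CPM against 212 and 1133 CPM. Stab2 was lower in aKO than in aWT in either class, and its log2 ratio of Fgl2/Nts over Mrc1/Ptx3 cells was -3.99 in aKO and -3.62 in aWT. Cacna2d3, an auxiliary subunit of calcium channels, was at 11.3 and 22.2 CPM against 176 and 289.9 CPM. Gria2, a glutamate receptor subunit, was at 11.9 and 14.2 CPM against 195 and 144 CPM. Hapln1, a link protein that binds hyaluronan, was at 8.22 and 4.45 CPM against 137 and 87.4 CPM. Runx2, a transcription factor known from bone, was at 20.3 and 18.7 CPM against 168 and 194 CPM. The others among the 12 lowest were Zmat4, Tmem132d, Gm525, Sult5a1, Exoc3l2 and Thrsp, with log2 ratios between -3.90 and -2.40.

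**Figure D3:**
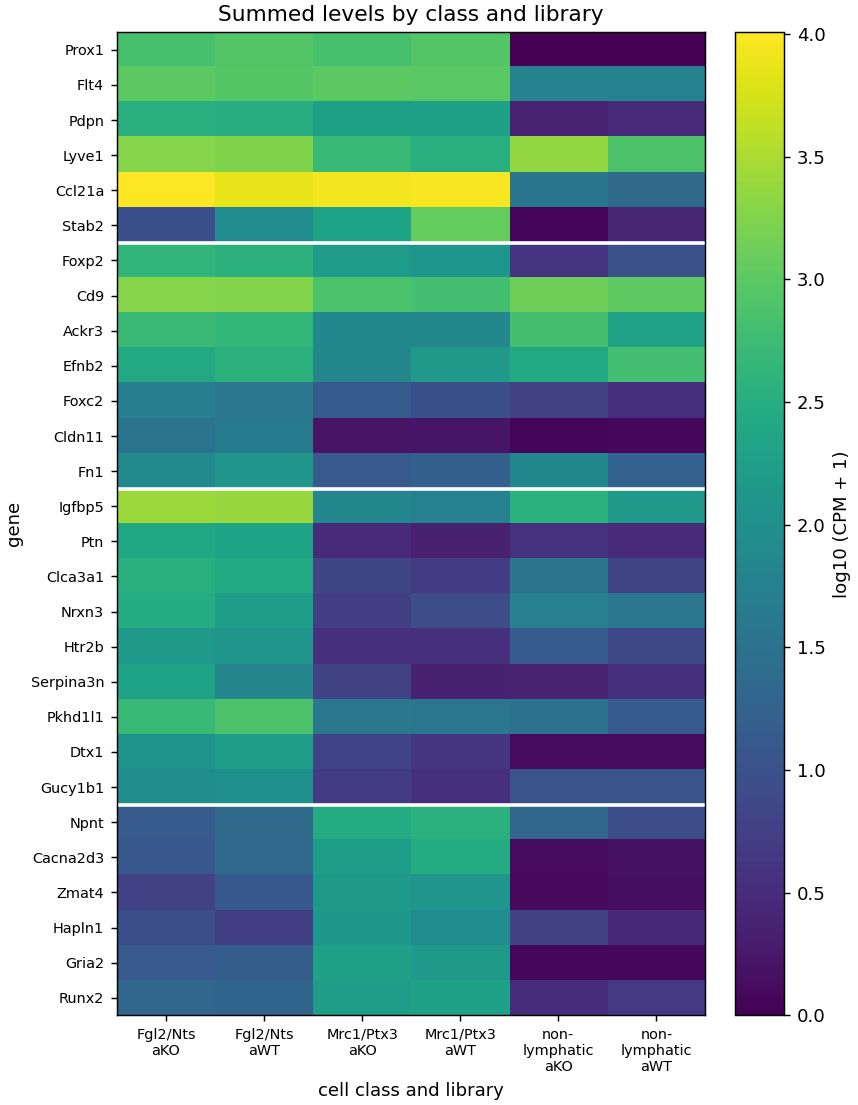
Summed level of each gene, as log10 of CPM plus 1 (colour), in Fgl2/Nts, Mrc1/Ptx3 and non-lymphatic cells of each library (columns), for lymphatic identity and capillary genes, collecting and valve genes, and the highest and lowest genes of the Fgl2/Nts over Mrc1/Ptx3 comparison (rows, between white lines). Igfbp5 is at 2573 and 2480.0 CPM in the Fgl2/Nts columns and at 71.3 and 57.6 CPM in the Mrc1/Ptx3 columns.

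Most genes of lymphatic identity lay within 1.5-fold in both classes, while Lyve1, Fxyd6 and Pdpn were higher in Fgl2/Nts cells of both libraries. For gene lists a member was measured at 20 CPM or more and counted at 1.5-fold or more. By that rule 6.3% of all genes were higher and 7.1% lower in Fgl2/Nts cells within aKO, and 9.51% and 11.1% within aWT. Of 12 measured identity genes outside the selection rule, 3 were higher and 0 lower in aKO (median log2 ratio 0.10), and 3 higher and 2 lower in aWT (median -0.17). The medians over all genes at 20 CPM were -0.04 and -0.05. Lyve1, a hyaluronan receptor, was at 1932 CPM in aKO and 1776 CPM in aWT Fgl2/Nts cells, against 519 and 334 CPM in Mrc1/Ptx3 cells. Lyve1 was also at 2302 and 767 CPM in non-lymphatic barcodes, and in members without the mixed barcodes described below it was at 1851 and 1918 CPM. Fxyd6, a regulator of the sodium pump, was at 626 and 683 CPM against 354 and 349 CPM. Pdpn, the mucin-like glycoprotein podoplanin, was at 326 and 316 CPM against 187 and 195 CPM. Flt4 was at 984 and 879 CPM against 1008 and 961 CPM, and its coreceptor Nrp2 at 1093 and 731 CPM against 1593 and 1496 CPM. Ccl21a, the chemokine that draws dendritic cells into lymphatics, was at 10151 and 7573 CPM against 8579.9 and 9347 CPM, with near-identical gene copies that make its counts uncertain.

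Collecting and valve genes were more often higher than lower in Fgl2/Nts cells, and capillary genes lay both ways. Of the collecting list, 5 of 7 measured genes were higher and 1 lower in aKO (median log2 ratio 1.34), and 4 of 8 higher and 2 lower in aWT (0.91). Of the valve list, 8 of 15 were higher and 0 lower in aKO (0.97), and 8 of 14 higher and 1 lower in aWT (0.73). Of the capillary list, 2 of 8 were higher and 2 lower in aKO (0.16), and 3 higher and 1 lower of 8 in aWT (-0.26). Without the mixed barcodes described below, 5 of 7 collecting genes were higher and 1 lower in aKO. In aWT 4 of 8 were then higher and 3 lower. Mixed barcodes were taken out of Fgl2/Nts cells only, so these counts are not balanced between the classes. Of valve genes 8 of 14 were then higher in either library, with 0 lower in aKO and 1 in aWT. The collecting list and the markers of these cells were drawn up with results of these data known, so their direction is not independent.

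Cd9, a tetraspanin, was at 1904 CPM in aKO and 1806 CPM in aWT Fgl2/Nts cells, against 751 and 646 CPM in Mrc1/Ptx3 cells. Ackr3, a scavenger receptor for Cxcl12 and adrenomedullin, was at 537 and 452 CPM against 73.7 and 70.2 CPM. Efnb2, an ephrin ligand needed in lymphatic valves, was at 273 and 369 CPM against 69.8 and 148 CPM. Each of these was higher than in Mrc1/Ptx3 cells of either library, but each was also found in non-lymphatic barcodes, Ackr3 at 655 and 205 CPM. Foxc2, the transcription factor of valve formation, was at 50.3 and 37.4 CPM against 12.7 and 8.60 CPM. Cldn11, a claudin of tight junctions, was at 33.2 and 41.8 CPM against 0.607 and 0.662 CPM. Fibronectin, Fn1, whose splice form with an extra domain is the ligand of Itga9 in valves, was at 79.9 and 120.1 CPM against 12.1 and 15.9 CPM. Other valve genes did not follow, such as Itga9 at 582 and 589 CPM against 781 and 823 CPM. The connexin Gja1, also on the collecting list, was at 332 and 287 CPM against 491 and 528 CPM. Tspan18 of the collecting list was lower too, with log2 ratios of -0.64 in aKO and -1.21 in aWT once mixed barcodes were taken out of Fgl2/Nts cells only.

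Genes of immune traffic stood higher in Fgl2/Nts cells for 12 of 18 measured and lower for 1 in aKO (median log2 ratio 1.32), and for 10 of 19 and 2 in aWT (0.84). With mixed barcodes taken out of Fgl2/Nts cells only, 12 of 18 were higher and 2 lower in aKO. In aWT 10 of 19 were then higher and 4 lower. Il33, an alarmin cytokine, was at 56.8 CPM in aKO and 90.8 CPM in aWT Fgl2/Nts cells, against 5.16 and 7.28 CPM in Mrc1/Ptx3 cells. Il7, a growth factor of lymphocytes, was at 153 and 161 CPM against 73.7 and 70.2 CPM. Spns2, a transporter that releases sphingosine phosphate, was at 180.4 and 134 CPM against 62.5 and 49.6 CPM. Complement C3 and Serping1 lay in the same direction. C3 was at 69.9 and 62.3 CPM against 3.03 and 2.65 CPM. Serping1, an inhibitor of the first complement component, was at 168 and 206 CPM against 9.10 and 15.9 CPM. Tnfsf10, a death ligand, went the other way, with 75.2 and 81.9 CPM against 152 and 201 CPM.

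Genes of vessel tone and flow were split. In aKO 8 of 14 measured were higher and 2 lower in Fgl2/Nts cells (median log2 ratio 0.63), and in aWT 6 of 15 higher and 2 lower (0.10). With mixed barcodes taken out of Fgl2/Nts cells only, 5 of 13 were higher and 3 lower in aKO (0.45). In aWT 5 of 15 were then higher and 3 lower (0.21). Piezo2, a mechanically gated channel, was at 401 CPM in aKO and 371 CPM in aWT Fgl2/Nts cells, against 113 and 103 CPM in Mrc1/Ptx3 cells. Nos3, the endothelial nitric oxide synthase, was at 103 and 75.6 CPM against 35.8 and 12.6 CPM. Thbd, the anticoagulant thrombomodulin, was at 441 and 453 CPM against 124 and 193 CPM. The 2 lower genes in either library were the subunits of the ATP-sensitive potassium channel. Its pore subunit Kcnj8 was at 37.9 and 25.8 CPM against 127 and 142 CPM, and its regulatory subunit Abcc9 at 12.0 and 13.3 CPM against 35.8 and 34.4 CPM.

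Guidance and matrix genes divided the classes in either direction. Of guidance genes outside the rule, 2 of 21 were higher and 7 lower in aKO Fgl2/Nts cells. In aWT 2 of 23 were higher and 8 lower. With mixed barcodes taken out of Fgl2/Nts cells only, 11 and 12 were lower. Whether leaving Mrc1/Ptx3 cells as they were made this shift was not tested. Plxnd1, a semaphorin receptor, was at 72.4 CPM in aKO and 48.9 CPM in aWT Fgl2/Nts cells, against 198 and 123 CPM in Mrc1/Ptx3 cells, and the netrin receptor Unc5b at 128 and 90.8 CPM against 246 and 235 CPM. Of matrix genes, 6 of 23 were higher and 2 lower in aKO, and 8 of 23 higher and 3 lower in aWT. Elastin, Eln, was at 343 and 276 CPM against 89.2 and 95.3 CPM, while the matrix protein Sparc was at 269.8 and 191 CPM against 869 and 858 CPM. Angpt2, a ligand of the receptor Tek, was at 60.9 and 105 CPM against 269 and 267 CPM.

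The Fgl2/Nts cells were not uniform. Clustering them alone gave 7 clusters, whose leading genes are descriptions since the clusters were made from them. Cluster 0, with 291 aKO and 57 aWT cells, had Fndc1 and Piezo2 among its leading genes, and Piezo2 was there at 836 CPM in aKO and 734 CPM in aWT, against 257 and 270 CPM in the other members. Cluster 1, with 294 and 49 cells, held Ptn, Cmah and Igfbp5 at high levels, and Igfbp5 was at 5450 and 5207 CPM there, against 1396 and 1427 CPM in the other members. Cluster 2, with 228 and 39 cells, was led by Mt1, Gm525, Nav3 and Runx2, of which Gm525 and Runx2 were among the genes highest in Mrc1/Ptx3 cells. Its Ptx3 level was 124 CPM in aKO and 68.5 CPM in aWT, against 45.8 and 20.7 CPM in the other members. Alveolar epithelial genes summed to 22.1 CPM in aKO and 17173.5 CPM in aWT cells of cluster 2. It holds the aWT epithelial barcode described below, which enters its aWT levels. These 3 clusters held 28.8%, 29.1% and 22.6% of aKO and 29.2%, 25.1% and 20% of aWT members.

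Cluster 4, with 57 aKO and 16 aWT cells (5.65% and 8.21%), had the highest summed level of the valve list. It was led by Spp1, Sbspon, Slc41a1 and Dcn, and Neo1, Cldn11 and Adm were among its 20 leading genes. Valve genes summed to 4232 CPM in aKO and 4128 CPM in aWT cells of the cluster, against 3166 and 3065 CPM over all members. Capillary genes summed to 2946 and 2121 CPM there, against 15641 and 13202 CPM over all members. Lymphatic identity genes, the rule's included, summed to 8087 and 7115 CPM there, against 23331 and 20623 CPM over all members, so the cluster was low in these too and is given no name. Dcn is also on the mesenchymal list, which summed to 246 and 228 CPM in the cluster, against 59.2 and 37.4 CPM over all members. Whether RNA of mesenchymal cells contributed was not tested. Cluster 5, with 15 and 8 cells at medians of 2593 and 1773.5 UMIs, was left unnamed.

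**Figure D4:**
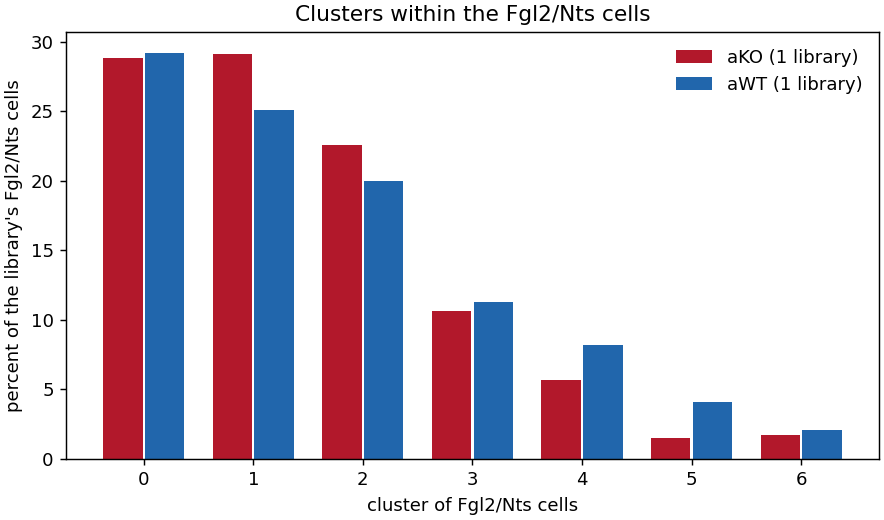
Percent of each library's Fgl2/Nts cells (y axis) in the 7 clusters made from these cells alone (x axis), aKO in red and aWT in blue, with 1 library each. Clusters 0, 1 and 2 hold 28.8%, 29.1% and 22.6% of aKO members, and clusters 3 and 6, led by blood endothelial genes, hold 10.6% and 1.68% of aKO and 11.3% and 2.05% of aWT members.

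Clusters 3 and 6 were led by genes of blood vessels. Cluster 3, with 107 aKO and 22 aWT cells, was led by Adgrg6, Adgrl3 and Pde3a, with Sema3c among the next, and cluster 6, with 17 and 4 cells, by Emp2 and AW112010, with the aerocyte marker Car4 close behind. Cluster 3 had medians of 14503 and 8779.5 UMIs, and Scrublet scores called 86.9% of its aKO and 90.9% of its aWT cells doublets. In cluster 6 the calls were 94.1% and 100%, against 11.8% and 15.4% over all members. In addition, 1 aWT barcode held 3462 UMIs of alveolar epithelial genes, while the next aWT member held 15 and the highest aKO member 35. The barcodes of these clusters and that barcode are called mixed, and without them 885 aKO and 168 aWT cells remained. Only Fgl2/Nts cells were clustered, so no such cluster was taken out of Mrc1/Ptx3 cells. Doublet calls were 12.1% of aKO and 18.5% of aWT Mrc1/Ptx3 cells. Comparisons of the classes without mixed barcodes are therefore unbalanced. Markers of general capillary cells summed to 1735 CPM in aKO and 2495 CPM in aWT members, and to 1305 and 1428 CPM without mixed barcodes. Alveolar epithelial markers summed to 69.1 and 3287 CPM, and to 22.97 and 179 CPM without them. Airway epithelial markers summed to 13.5 and 197 CPM, and to 12.9 and 238 CPM without them, so this step did not lower them in aWT. Of 14 leukocyte markers, 6 in aKO and 10 in aWT had no UMI in members, and their sums were 3.26 and 4.45 CPM.

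Between the libraries, aKO and aWT Fgl2/Nts cells differed in heat-shock genes, in markers of blood endothelium and epithelium, and in single genes such as Pla2g7, Cmah, Serpina3n and Postn. At 50 CPM and 2-fold, 50 of 4499 genes were higher in aKO members, a background of 1.11%, and 82 were lower, or 1.82%. Sex-linked genes such as Xist, higher, and Ddx3y, lower, are in these counts and in the overlaps with other cells. Without mixed barcodes, a choice made after the data had been seen, 44 were higher and 67 lower. No share over all genes was computed without mixed barcodes, for these counts or for list counts. They are therefore not read against the 50 and 82. Of the 50 higher genes, 31 were at least 1.5-fold higher in aKO Mrc1/Ptx3 cells as well and 30 in non-lymphatic barcodes, where 6.73% and 11.3% of the 4499 genes were. Of the 82 lower genes, 71 were lower in Mrc1/Ptx3 cells and 66 in non-lymphatic barcodes, where 5.11% and 5.29% were. In neither population were 10 of the higher genes, namely Gm30382, Gcnt1, Postn, Apod, Col5a2, Endod1, Marcksl1, Ephb1, Cpq and Hs3st1, and 2 of the lower, Tppp3 and Nppc, while 85.4% of the 4499 genes were higher in neither and 92.1% lower in neither. Of these genes, Gm30382 had a log2 ratio of -0.40 in members without mixed barcodes. Postn was seen in only 1.29% of aKO and 0.45% of aWT Mrc1/Ptx3 cells, where a 1.5-fold change could hardly be seen. Whether the cells differ from those populations in these genes was not tested.

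Sex-linked genes, among them Xist with a log2 ratio of 6.28, were left out of the rankings. Of the ranked genes Pla2g7, an enzyme that breaks down platelet-activating factor, had the highest ratio between the libraries. It was at 58.6 CPM in aKO (53.7 to 63.9) and 5.34 CPM in aWT members (1.96 to 11.6), a log2 ratio of 2.62. It was also higher in aKO Mrc1/Ptx3 cells, at 20.3 CPM, with no UMI in aWT ones. Cmah, which makes the sialic acid that humans lack, was at 319 CPM in aKO and 90.8 CPM in aWT members, with 353 and 113 CPM without mixed barcodes. Gcnt1, a glycosyltransferase that branches mucin-type sugars, was at 52.7 and 14.2 CPM, with 57.7 and 12.8 CPM without them. For both glycan genes the aKO level was over 3 times the aWT level either way.

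The protease inhibitor Serpina3n and the matrix protein Postn, both among the 12 highest over Mrc1/Ptx3 cells, were also higher in aKO members. Serpina3n was at 208 CPM in aKO and 65.0 CPM in aWT members, a log2 ratio of 1.60, and 233 and 77.0 CPM without mixed barcodes. Postn was at 237 and 82.8 CPM (1.46), and its log2 ratio was 1.65 without them. At 2000 UMIs per cell Serpina3n was seen in 27.5% of aKO and 9.50% of aWT members, and Postn in 23.7% and 10.6%. Lcn2, an iron-binding acute-phase protein of the lipocalins, was at 1697 CPM in aKO and 646 CPM in aWT members, and Lrg1, a secreted leucine-rich glycoprotein, at 759.7 and 339 CPM. Lcn2 was higher in aKO Mrc1/Ptx3 cells too, at 408 CPM against 132 CPM in aWT, but its non-lymphatic levels were 6.70 and 12.3 CPM. Tinagl1, a matrix protein, was at 175 CPM in aKO and 47.2 CPM in aWT members, and Lgals1, a galectin, at 72.3 and 20.5 CPM.

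Several other genes of the highest 12 depended on the mixed barcodes or on 1 cell. Hdac9, a histone deacetylase, was at 155 CPM in aKO and 33.8 CPM in aWT members, and at 35.9 and 15.2 CPM without mixed barcodes, while non-lymphatic barcodes had 1056 and 161 CPM. Samd5 was at 57.4 and 15.1 CPM, but at 4.68 and 4.67 CPM without mixed barcodes. Vcam1, an adhesion molecule for leukocytes, was at 77.3 and 15.1 CPM, with 36.5% of its aKO UMIs in 1 cell. Gm30382, an unnamed transcript, was at 89.6 and 25.8 CPM, and at 4.96 and 8.17 CPM without mixed barcodes. The remaining genes were Cacna1a, a calcium channel subunit, at 54.5 and 12.5 CPM, and Gap43, a growth-cone protein, at 61.1 and 17.8 CPM.

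Among the ranked genes, the lowest ratios belonged mostly to epithelial genes. Sftpc, a surfactant protein of alveolar epithelium, was at 5.52 CPM in aKO and 2322 CPM in aWT members, and at 5.53 and 118 CPM without mixed barcodes. Of the 12 lowest genes, Sftpc, Sftpa1, Sftpb, Sftpd, Lyz2, Slc34a2 and Cxcl15 are on the alveolar epithelial list, and non-lymphatic barcodes held Sftpc at 515 CPM in aKO and 3217 CPM in aWT. The others were Lyz1, Cbr2, Sec14l3, Wfdc2 and A830019P07Rik. Of these, A830019P07Rik had no UMI in aKO members and 62.3 CPM in aWT members, at least 184-fold lower in aKO against a floor of 3 counts over the group. It had 1 UMI in the whole aKO library and 165 in the aWT library. In aWT it was at 38.4 CPM in Mrc1/Ptx3 cells and 0.109 CPM in non-lymphatic barcodes.

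Without mixed barcodes the lowest ratios of the ranked genes belonged to Cbr2, Sec14l3, A830019P07Rik, Lsamp, Sftpc and Aldh1a1. Cbr2, a carbonyl reductase of lung epithelium, was then at 0.567 CPM in aKO and 106 CPM in aWT members, while Slc34a2, Sftpd and Lyz1 had log2 ratios of 0.04, -0.22 and -0.26. Next came Sema3c, Cmss1, AY036118 and Hpgd, and last the heat-shock genes Hsph1 and Hspa1a. Sema3c, a secreted semaphorin, was at 5.11 CPM in aKO and 70.0 CPM in aWT members, and in non-lymphatic barcodes at 542 and 1512 CPM. Sec14l3, on the airway epithelial list, was at 0.142 CPM in aKO and 84.0 CPM in aWT members. Its log2 ratio in all members changed sign once doublet calls were left out. The airway epithelial list, Sec14l3 included, still summed to 12.9 CPM in aKO and 238 CPM in aWT members of this set. Airway RNA thus remained in aWT members without mixed barcodes. How far it or capillary RNA made the differences named here was not tested. Stab2, not among these 12, was at 10.8 CPM in aKO and 74.7 CPM in aWT members, and here the non-lymphatic levels were 0.192 and 1.68 CPM. Cmss1 and AY036118 were at 269 against 1741 CPM and 317 against 1881 CPM, and both were also lower in aKO non-lymphatic barcodes.

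Heat-shock and immediate-early genes were lower in aKO members for 8 of 20 measured and higher for 0, with a median log2 ratio of -0.48. By the list rule 6.5% of all genes were higher and 5.22% lower in this comparison, and the median of all genes was 0.04. The inducible chaperone Hspa1a was at 206 CPM in aKO and 891 CPM in aWT members, and Hspa1b at 416 and 1385 CPM. The small heat-shock protein Hspb1 was at 299 and 1054 CPM. Each of the 3 was also lower in aKO than in aWT Mrc1/Ptx3 cells, with Hspa1a at 163 and 1214 CPM, and in non-lymphatic barcodes, at 646 and 2288 CPM. The transcription factor Atf3 was at 107 and 265 CPM. Without mixed barcodes 10 of 20 genes were lower and 0 higher.

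Some genes of the BMP9 and ALK1 pathway were lower in aKO members. Of 14 measured genes 0 were higher and 5 lower in aKO members (median log2 ratio -0.31), against 0 and 8 of 14 in Mrc1/Ptx3 cells (-0.69) and 1 and 10 of 14 in non-lymphatic barcodes (-1.78). By the same rule 7.3% of all genes were higher and 5.73% lower in aKO Mrc1/Ptx3 cells, and 10.2% and 6.17% in non-lymphatic barcodes. The difference between these populations was not tested. Without mixed barcodes 1 of 12 was higher and 4 lower in members (-0.05). The receptor gene Acvrl1 was at 142 CPM in aKO and 252 CPM in aWT members, and its coreceptor Eng at 317 and 407 CPM. In non-lymphatic barcodes Acvrl1 was at 585 and 1036 CPM. The 3' counts would not show the loss of an exon elsewhere in the transcript, so these levels do not check the label.

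Id1 and Id3, inhibitors of bHLH transcription factors and direct targets of BMP signalling, differed by less than 1.5-fold between aKO and aWT members and by over 10-fold between non-lymphatic barcodes. Id1 was at 203 CPM in aKO and 227 CPM in aWT members, and at 95.2 and 1209.8 CPM in non-lymphatic barcodes. Id3 was at 343 and 259.8 CPM in members and 83.8 and 988 CPM in non-lymphatic barcodes. Without mixed barcodes the members' log2 ratios were 0.55 for Id1 (212 and 144 CPM) and 0.93 for Id3 (371 and 193 CPM). The part of free RNA from other cells in these values was not tested. At 2000 UMIs per cell Id1 was seen in 20.4% of aKO and 21.8% of aWT members, and in 10.5% and 80.6% of non-lymphatic barcodes.

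The inhibitory Smads, which damp BMP and TGF-beta signals, were lower in aKO members, but the log2 ratio of Smad7 was 0.36 without barcodes that held blood endothelial UMIs and 0.37 after thinning. Smad6 was at 27.0 CPM in aKO and 149 CPM in aWT members, and at 4.25 and 26.8 CPM without mixed barcodes. Smad7 was at 22.8 and 81.0 CPM, and at 9.50 and 15.2 CPM without them. Most of the members' Smad6 thus lay in mixed barcodes, and in non-lymphatic barcodes it was at 165 and 839 CPM. The receptor Bmpr2 was at 317 CPM in aKO and 594 CPM in aWT members, with 246 and 376 CPM without mixed barcodes. Tmem100, a target of ALK1, was at 136 and 295 CPM, with 32.6 and 85.2 CPM without them. The ligand Bmp6, not on the list, was at 53.0 and 182 CPM, with 20.3 and 57.2 CPM without them.

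**Figure D5:**
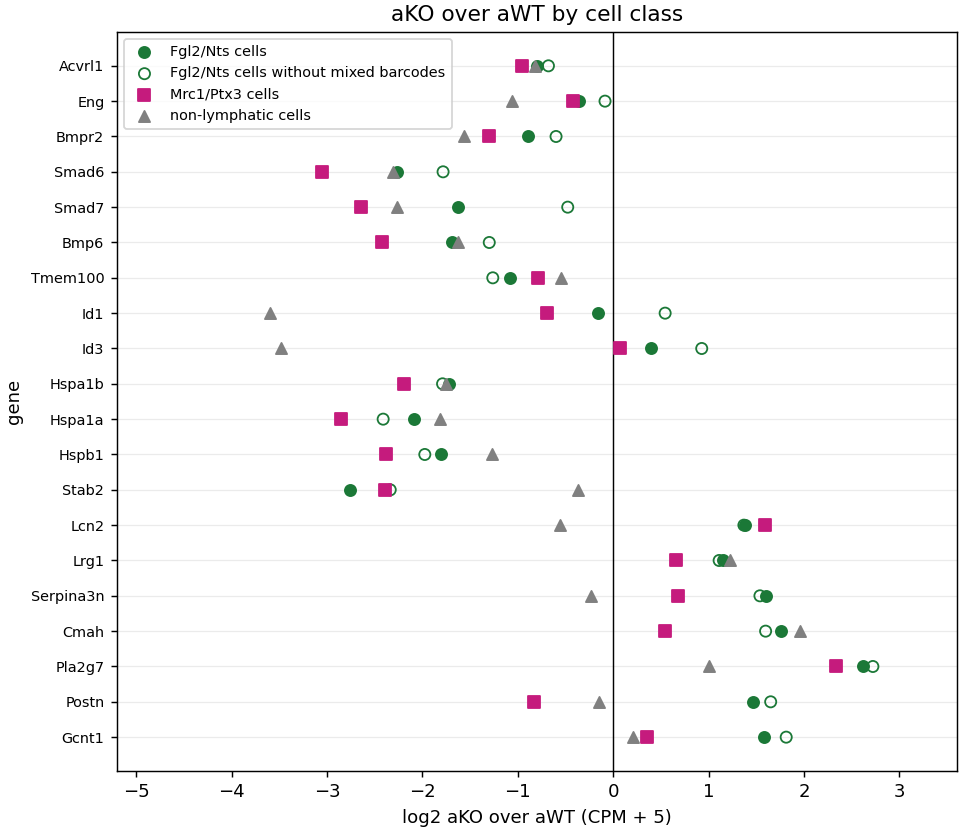
Log2 ratio of aKO over aWT after adding 5 CPM (x axis) for genes of the BMP9 and ALK1 pathway, heat-shock genes and genes named for Fgl2/Nts cells (y axis), in Fgl2/Nts cells (filled circles), the same cells without mixed barcodes (open circles), Mrc1/Ptx3 cells (squares) and non-lymphatic barcodes (triangles), with 1 library per group. Id1 is at -0.16 in Fgl2/Nts cells and -3.60 in non-lymphatic barcodes, and Postn at 1.46 and -0.15.

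Few genes of the identity, collecting and valve lists passed 1.5-fold between the libraries. By the same rule 6.5% of all genes were higher and 5.22% lower in aKO members. Of the capillary list 1 of 8 genes was higher and 2 lower (median log2 ratio 0.13), Stab2 among the lower. Of the identity list 1 of 12 genes was higher and 0 lower in aKO members (median log2 ratio 0.17), of the collecting list 0 of 8 higher and 1 lower (0.10), and of the valve list 2 of 15 higher and 0 lower (-0.02). Igfbp5 had a log2 ratio of 0.05, Foxp2 0.19, Cd9 0.08 and Flt4 0.16. Among the valve genes that were higher was Bmp4, a BMP ligand, at 34.8 CPM in aKO and 11.6 CPM in aWT members, but at 15.9 and 12.8 CPM without mixed barcodes. Of 23 matrix genes 3 were higher and 0 lower, among them Col5a2, a fibrillar collagen chain, at 81.9 and 31.1 CPM, and Mgp, whose log2 ratio was 1.47 in all members and -0.22 without mixed barcodes. Of 19 immune-traffic genes 4 were higher and 3 lower, with Il33 among the lower at 56.8 and 90.8 CPM. With 1 library per group these values have no replicate spread to be set against.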

How the data were processed

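Per the submitters' processing notes, reads were processed with Cell Ranger 7.2.0 against mm10, and the authors deposited the filtered UMI counts of 32286 features for each library. Not given in the sources used here are the gene annotation and the treatment of intronic reads. Of the gene symbols, 38 are shared by more than 1 identifier. Members and gene lists were chosen with earlier results of these data known. Counts were summed per class and library and scaled to CPM, and log2 ratios used a 5 CPM pseudocount, with exact Poisson and Clopper-Pearson intervals at 95%. Named genes were the 12 highest and 12 lowest of each comparison at 50 CPM. These rankings left out the 11 rule genes and genes linked to sex, as well as globin, antibody, ribosomal protein and mitochondrial genes. Also named were up to 4 of each of 31 lists by size of ratio, beside the identity, capillary, collecting and valve lists. A few genes that the rule names are not reported here. Doublets were kept in the values given. As an alternative chosen after the data had been seen, the highest Scrublet scores were left out at a set rate that grows with the number of barcodes, which called 931 barcodes in aKO and 1960 in aWT. Other alternatives changed the rule, depth, pseudocount, minimum and scaling (edgeR 4.0.16 TMM factors, used for scaling only). Members were clustered with scanpy 1.11.5 and leidenalg 0.10.2 at a resolution of 0.5, and thinning used 2000 UMIs. The size rule was tried on simulated data with 200 changed genes, as Poisson draws from the pooled levels of both libraries. For aKO over aWT it recovered 50 of 50 genes made 3-fold higher and 49 of 50 made 3-fold lower. There were 0 false calls among the unchanged of 4221 genes. The draws held counting error only, without variation between cells, mixed barcodes or animals, so they do not give the false calls in these data. Python 3.11.15, numpy 2.4.6, scipy 1.17.1, pandas 2.3.3 and R 4.3.3 were used.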

Additional observations from a re-analysis of the deposited data

Results flagged for a closer look

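Each of 5 genes was at least 1.5-fold in opposite directions between aKO and aWT in Fgl2/Nts and in Mrc1/Ptx3 cells, which is why it is listed; with 1 library per group the difference was not tested. Mgp, a matrix inhibitor of calcification, had a log2 ratio of 1.47 in Fgl2/Nts cells (110.1 CPM in aKO and 36.5 CPM in aWT) and -0.64 in Mrc1/Ptx3 cells, and -0.22 in Fgl2/Nts cells without mixed barcodes. Vwf, the clotting factor carrier of blood endothelium, had 0.78 (121 and 68.5 CPM) and -2.88, and -1.23 without mixed barcodes. Samd5 had 1.63 and -0.68, and 0.00 without them. Tppp3, a tubulin-binding protein, had -1.21 (68.0 and 164 CPM) and 0.77. Scgb1a1, a secretory protein of airway epithelium, had -2.26 (11.6 and 74.7 CPM) and 1.39.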

How the results depend on the processing

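Across the alternatives the aKO share of lymphatic barcodes stayed above the aWT share: 48.6% in aKO and 26.3% in aWT with at least 5 UMIs of the Fgl2 trio, 43.5% and 25.5% at a ratio of 4, 40.2% and 21.7% without barcodes holding 2 or more blood endothelial UMIs, and 46.4% in aKO after thinning. The 50 genes higher in aKO members became 102 without those barcodes, 124 after thinning, 25 with a 20 CPM pseudocount, and 98 or 27 with a minimum of 20 or 100 CPM, where the 82 lower became 148 or 48. For Fgl2/Nts over Mrc1/Ptx3 cells, 94 genes were lower in aKO at 100 CPM. In aWT, 274 were lower without blood endothelial UMIs, 330 were higher and 324 lower after thinning, 360 and 273 at 20 CPM, and 132 and 112 at 100 CPM. In both libraries 91 were higher and 65 lower at 100 CPM. How many genes were measured under each alternative was not kept. These counts thus have no share of all genes and are not directly comparable. The cause of these shifts was not tested, beyond the number of genes that a minimum admits.

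Between aKO and aWT members, log2 ratios changed sign for Mgp without doublet calls (-0.50), after thinning (-0.052), without blood endothelial clusters (-0.19) and without all mixed barcodes (-0.22). Gm30382 changed sign without blood endothelial UMIs (-0.69), without those clusters (-0.38) and without mixed barcodes (-0.40). Smad7 changed sign without blood endothelial UMIs (0.36) and after thinning (0.37), Sec14l3 at a ratio of 4 (0.038), without doublet calls (0.040) and without blood endothelial UMIs (0.11), and Slc34a2 without doublet calls and without mixed barcodes (0.040 in either). For Fgl2/Nts over Mrc1/Ptx3 cells Scgb1a1 changed sign in aKO without blood endothelial UMIs (0.44). In aWT, Sec14l3 changed sign at a ratio of 4 (-0.64), without doublet calls (-0.78), without blood endothelial UMIs (-1.10) and after thinning (-1.28). Lyz2 did so without doublet calls (-0.15), blood endothelial UMIs (-0.32) or surfactant barcodes (-0.20), Sftpd without doublet calls (-0.31) or surfactant barcodes (-0.49), Wfdc2 and Samd5 without doublet calls (-0.21 and 0.22), and Gm30382 without blood endothelial UMIs (1.11). The cause was not tested. TMM factors moved the median over all genes to 0.03 for Fgl2/Nts over Mrc1/Ptx3 cells in aKO, -0.04 in aWT and 0.07 for aKO over aWT. No paired analysis was possible because there was 1 library per group, and for the same reason no replicate could be left out. Leaving out doublets by Scrublet's automatic threshold was planned but not run, since it called 0 barcodes in aWT. A gene with no UMI in aWT members can still stand at up to 2.67 CPM there, against 0.338 CPM in aKO members, so low genes are less well bounded in aWT.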

Other observations

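Some transcription factors set Fgl2/Nts cells beside Mrc1/Ptx3 cells. Of 22 measured in each library, 6 were higher and 2 lower in aKO Fgl2/Nts cells and 7 higher and 2 lower in aWT ones. Foxc1, a forkhead factor that acts with Foxc2 in lymphatic vessels, was at 42.3 CPM in aKO and 48.1 CPM in aWT Fgl2/Nts cells, against 10.0 and 19.9 CPM in Mrc1/Ptx3 cells. Nr2f1, an orphan nuclear receptor, was lower, at 12.7 and 9.79 CPM against 24.0 and 25.2 CPM. Between aKO and aWT Fgl2/Nts cells 1 of 21 was higher and 0 lower. Of lipid genes, 7 of 14 were higher and 1 lower in aKO Fgl2/Nts cells than in Mrc1/Ptx3 cells. In aWT 3 of 11 were higher and 2 lower. With mixed barcodes taken out of Fgl2/Nts cells only, 7 of 14 were higher and 4 lower in aKO. In aWT 3 of 11 were then higher and 5 lower. Pparg, a nuclear receptor of fatty acids, was at 123 and 102 CPM against 31.2 and 14.6 CPM, and the fatty acid carrier Fabp4 at 186 and 158 CPM against 81.6 and 41.0 CPM. Of the interferon list 2 of 15 were higher and 3 lower in aKO Fgl2/Nts cells, and 3 of 15 higher and 2 lower in aWT. Its members Ifi27l2a and Ifitm3 lay the same way in both libraries, the first at 252 and 205 CPM against 74.6 and 26.5 CPM, and the antiviral membrane protein Ifitm3 at 2369 and 1365 CPM against 1025 and 792 CPM.

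Junction and respiration genes differed modestly between the libraries. Of 16 junction genes 4 were higher and 1 lower in aKO Fgl2/Nts cells. Jam2, a junctional adhesion molecule, was at 43.1 CPM in aKO and 12.5 CPM in aWT members, and its relative F11r at 350.0 and 168 CPM, while VE-cadherin, Cdh5, was at 461 and 717 CPM. Without mixed barcodes 3 of 15 were higher and 0 lower, Jam2 at 9.36 and 4.67 CPM and Cdh5 at 397 and 553 CPM. Of 20 genes of oxidative phosphorylation 2 were higher and 0 lower, with a median log2 ratio of 0.37. Of 13 MHC class I genes 1 was higher and 3 lower, H2-D1 at 1701 and 866 CPM. Of 3 measured MHC class II genes 3 were lower, Cd74, the invariant chain, at 9.45 and 48.9 CPM, with 1 gene measured and 0 lower without mixed barcodes. Among markers of other vessels, aerocyte genes were lower for 5 of 9 and higher for 1, general capillary genes lower for 8 of 11 and higher for 0, and venous genes higher for 3 of 8 and lower for 0. Without mixed barcodes the counts were 5 lower of 8 and 0 higher, 3 lower of 10 and 1 higher, and 3 higher of 8 and 2 lower. Their part in the other differences was not tested.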
